A study of Mus musculus with 3 samples.

Results

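The genes described here are 10 markers of neutrophils, monocytes and their granules, taken by name from 21883 protein-coding genes: Mpo, Elane, Prtn3, Ctsg, Ly6c2, Lyz2, S100a8, S100a9, Cd68 and Itgam. They were chosen by name with the gene-end peaks of these same lists known, so their peaks are given as a description and no test is made. For each gene, every accessible region called in the gene or within 20 kb on either side was collected from 3 peak lists, which gave 25 peaks in 11 merged regions out of 24981 in the series. Of the 10 genes, 6 had at least 1 such peak in some list and 4 had none in any, where 27.4% of all protein-coding genes had none.

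The cells were hematopoietic stem cells (HSCs) sorted by flow cytometry from adult mice of genotype Mx1-Cre-/-;mTORflox/flox. All mice had received poly(I:C), an RNA mimic that induces interferon and switches on Mx1-Cre where it is present. These mice lacked the Cre, so the floxed mTOR gene stayed intact in all 3 groups. The sorted cells were kept in StemSpan SFEM medium and given the solvent DMSO, 200 nM AZD2014 or 1 µM rapamycin. AZD2014 blocks the kinase site of mTOR, and rapamycin binds mTOR together with an FKBP protein. Each group was 1 library of 50000 cells, assayed by ATAC-seq, in which a transposase cuts and tags open DNA. The sources used here do not give the mouse strain, the number of mice pooled or the duration of drug exposure. With 1 library a group there is no spread to set a difference against, and a gene without a peak is a gene where nothing passed the authors' threshold at an unknown depth. The drugs were given at different doses, so their values stand side by side without a comparison of the compounds.

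Neutrophils and monocytes arise from HSCs through granulocyte and monocyte progenitors. At the promyelocyte stage the cells fill their primary granules with myeloperoxidase and serine proteases, and later stages make antimicrobial proteins of the secondary granules and the cytosol. Transcription of these genes is known to depend on PU.1, C/EBP factors and RUNX1. In HSCs the granule genes are mostly silent, although low Mpo expression marks early myeloid priming.

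Among the 10 genes, 3 had a peak over their transcription start, Mpo and Ly6c2 under rapamycin and Cd68 under AZD2014, and the DMSO list had no overlapping peak at any of them. Over all protein-coding genes, a peak within 1 kb of either gene end was found in the rapamycin list alone at 0.850% and in the AZD2014 list alone at 2.43%, and nothing is read from the members' counts because such peaks brought them together. The 250 bases before these 3 starts lay wholly inside the called peak, which is why they are printed here, at Ly6c2 without the bases that the gene's RefSeq record already includes (155 bases left). They come from RefSeq (GRCm38.p6, the assembly behind mm10) and run 5′ to 3′ on the gene's own strand. The Mpo stretch is chr11:87793534-87793783 on the plus strand, the Ly6c2 stretch chr15:75112067-75112221 on the minus strand and the Cd68 stretch chr11:69666171-69666420 on the minus strand. Capitals mark matches on either strand to GAGGAA (the core bound by PU.1), TTGCNNAA (C/EBP) and TGTGGT (RUNX, written ACCACA on the other strand).
Mpo: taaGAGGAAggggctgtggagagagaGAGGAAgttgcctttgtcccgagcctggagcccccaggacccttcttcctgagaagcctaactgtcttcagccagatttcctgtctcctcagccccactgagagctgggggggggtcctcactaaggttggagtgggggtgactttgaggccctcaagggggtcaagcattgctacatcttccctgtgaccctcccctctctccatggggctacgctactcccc
Ly6c2: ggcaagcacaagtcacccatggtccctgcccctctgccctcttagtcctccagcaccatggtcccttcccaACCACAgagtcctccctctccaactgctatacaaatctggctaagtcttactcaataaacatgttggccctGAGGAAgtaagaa
Cd68: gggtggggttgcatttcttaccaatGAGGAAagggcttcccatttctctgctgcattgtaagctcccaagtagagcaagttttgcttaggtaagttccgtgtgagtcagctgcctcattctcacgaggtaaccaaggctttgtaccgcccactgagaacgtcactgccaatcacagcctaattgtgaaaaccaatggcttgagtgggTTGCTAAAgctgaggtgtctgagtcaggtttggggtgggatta
All 3 hold GAGGAA, Mpo at 2 places, while the RUNX letters occur at Ly6c2 and the C/EBP letters at Cd68. The same search over the 250 bases before the start of all 10 genes found GAGGAA in 8, the exceptions being Lyz2 and S100a9. It is found in 23.3% of the 32851 promoters of the RefSeq table. RUNX letters were in 4 of the 10 (Ctsg, Ly6c2, Lyz2 and S100a9) against 14.0% of all promoters. C/EBP letters were in 2 (S100a9 and Cd68) against 9.56%. These matches describe the letters and do not show binding. Elane, Prtn3, Ctsg, S100a8 and Itgam carry GAGGAA as well, and no peak of any list covered their promoters.

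Mpo encodes myeloperoxidase, the most abundant enzyme of the primary granule (gene ID 17523, chromosome 11, 87793784 to 87804412, mm10). Under rapamycin its window held 1 peak of 598 bp (87793243 to 87793840), reaching from 541 bp before the start site to 56 bp into the gene. Under DMSO and under AZD2014 the window held 0 peaks. The closest peaks there lay 37.9 kb from the gene in both lists, near the 5′ neighbour Tspoap1, and the rapamycin list had that peak too at 37.8 kb. The Mpo peak scored 75.81, where the authors' lowest score is 50, and ranked 13265 of 18233, in the eighth decile of the rapamycin list counted from the highest scores. Within that decile, 17.9% of all peaks had no partner in either other list, 55.4% had one under DMSO and 76.4% had one under AZD2014. The peak was still present when the longer lists were shortened to the length of the DMSO list by keeping their highest scores (equal list lengths).

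Ly6c2 encodes a GPI-anchored surface protein that marks inflammatory monocytes (gene ID 100041546, chromosome 15, 75108161 to 75112066). Its only window peak was also under rapamycin, 370 bp wide (75111954 to 75112323), from 352 bp before the first start site to 17 bp after it. It scored 50.11 and ranked 18195 of 18233, so it is among the weakest peaks of its list and is lost at equal list lengths. In the lowest decile of the rapamycin list, 44.6% of peaks had no partner in either other list.
Just beyond the Ly6c2 window stood a far stronger region. All 3 lists held it, at 75085437 to 75087204 under DMSO, 75085450 to 75087223 under AZD2014 and 75085432 to 75087099 under rapamycin. These peaks ended 20.957 kb, 20.938 kb and 21.062 kb from the gene, so a window of 20 kb leaves them out. They scored 956.95, 1373.28 and 1471.3 and ranked 25, 20 and 19 in their lists. The region lies between Ly6c2 and its paralog Ly6c1, and which gene it serves was not tested. Reads from such paralogs can be split or discarded by an aligner. The Ly6c2 promoter and that of Ly6c1 at start site 75048837 had 214 identities, 46 mismatches and 80 gaps in a global alignment of 300 bases each (62.9% identity). With the Ly6c1 start site 75048663 the identity was 49.1%. Whether read assignment between the paralogs bears on the Ly6c2 call was not tested.

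Cd68 encodes a lysosomal glycoprotein of macrophages and monocytes (gene ID 12514, chromosome 11, 69664213 to 69666170). A peak over its start was called under AZD2014 alone, 462 bp wide (69666048 to 69666509), from 339 bp before the start site to 122 bp after it. It scored 57.24 and ranked 19192 of 21321, and it was lost at equal list lengths. In the lowest decile of the AZD2014 list, 65.4% of peaks had no partner in either other list. The nearest DMSO and rapamycin peaks lay 3.13 kb and 3.05 kb away, at the neighbour Mpdu1.
The other peaks around Cd68 belonged by distance to its neighbours. Window peaks numbered 4 (DMSO), 5 (AZD2014) and 3 (rapamycin). A region common to the lists covered the start of Mpdu1, which encodes a factor for dolichol-linked sugar use, with scores of 291.1 under DMSO, 409.19 under AZD2014 and 315.3 under rapamycin. Another covered the start of Senp3, which encodes a SUMO protease, scoring 249.83, 276.18 and 273.36 in the same order. By rank Mpdu1 stood 16.7%, 14.2% and 18.2% of the way down each list. Senp3 stood at 22.3%, 26.9% and 23.2%, so its higher AZD2014 score went with a lower place. At Eif4a1, the gene of the translation initiation helicase eIF4A1, DMSO had 2 peaks (scores 186.2 and 285.13) and AZD2014 also 2 (142.11 and 375.07). Rapamycin had 1 peak of 2030 bp there, with a score of 463.56. The lower peak count at Cd68 under rapamycin than under DMSO therefore came from this joined peak and not from an uncovered region.

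**Figure D1:**
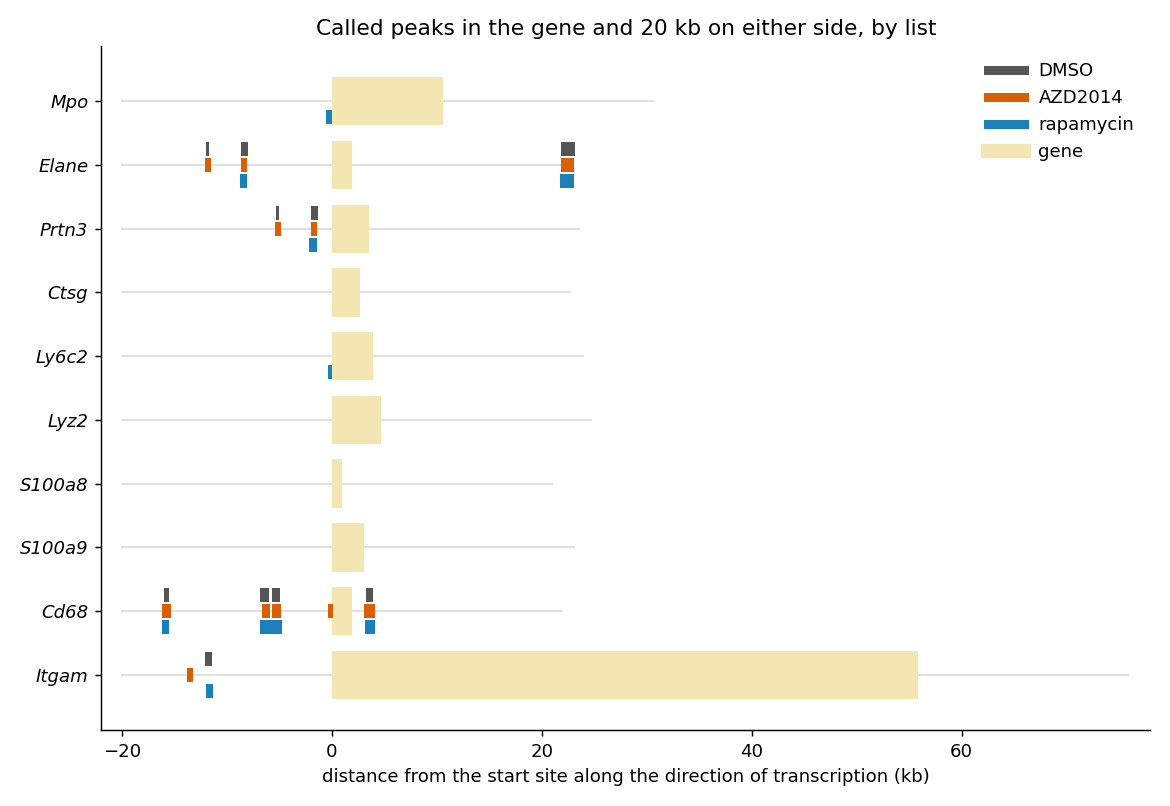
Called peaks around each of the 10 genes, drawn to scale by distance from the start site in kb, with DMSO in grey, AZD2014 in orange and rapamycin in blue. Peaks over a start site are seen at Mpo and Ly6c2 (rapamycin) and Cd68 (AZD2014), and 4 genes have no peak within 20 kb; the 2 upstream regions at Prtn3 are the same as those at Elane.

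Elane (neutrophil elastase) and Prtn3 (proteinase 3) encode serine proteases of the primary granule and sit side by side on chromosome 10. Prtn3 (gene ID 19152) spans 79879667 to 79883174 and Elane (gene ID 50701) spans 79886312 to 79888216. Neither had a peak within 1 kb of an end in any list. A region upstream of Prtn3 was called in all 3 libraries, at 79877703 to 79878332 under DMSO, 79877643 to 79878277 under AZD2014 and 79877542 to 79878277 under rapamycin. It ended 1335 bp before the Prtn3 start under DMSO and 1390 bp before it under either drug, and about 8 kb before that of Elane (7.98 kb under DMSO, 8.04 kb under AZD2014 and under rapamycin). Of the 5 regions found in all 3 lists, this is the one with a gene of the 10 as the closest gene end.
Its scores were low, 61.66 under DMSO, 68.36 under AZD2014 and 77.34 under rapamycin. They ranked 14654, 16985 of 21321 and 13054 of 18233, or 85.3%, 79.7% and 71.6% of the way down each list. At equal list lengths the places were 85.3%, 98.8% and 75.9%, so the AZD2014 peak was just inside the shortened list.
A weaker region nearer the start of the neighbour Plppr3, 4.82 to 5.02 kb before Prtn3, was called under DMSO (score 54.23) and AZD2014 (score 52.53). No rapamycin peak overlapped it, the nearest being the region upstream of Prtn3, 2.9 kb from the DMSO peak. The third region in the Elane window covered the start of Med16, a Mediator subunit gene, in all 3 lists. It scored 323.45 (DMSO), 586.36 (AZD2014) and 398.87 (rapamycin), in the upper 13.02%, 4.84% and 10.7% of each list.

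Itgam encodes CD11b, the integrin subunit that pairs with the product of Itgb2 on myeloid cells (gene ID 16409, chromosome 7, 128062640 to 128118491). Its gene body of 55852 bp held no peak in any list, and neither end had one within 1 kb. A region upstream was called under DMSO (128050581 to 128051267, score 80.19) and under rapamycin (128050681 to 128051323, score 79.93), 11.4 kb and 11.3 kb before the start. These ranked 12042 and 12741, or 70.1% and 69.9% of the way down their lists. Under AZD2014 the window's peak lay elsewhere, at 128048833 to 128049376, which is 1205 bp from the DMSO peak and 13.3 kb before the start. It scored 55.36, ranked 19674 of 21321 and was lost at equal list lengths, leaving the Itgam window with 0 AZD2014 peaks there.

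**Figure D2:**
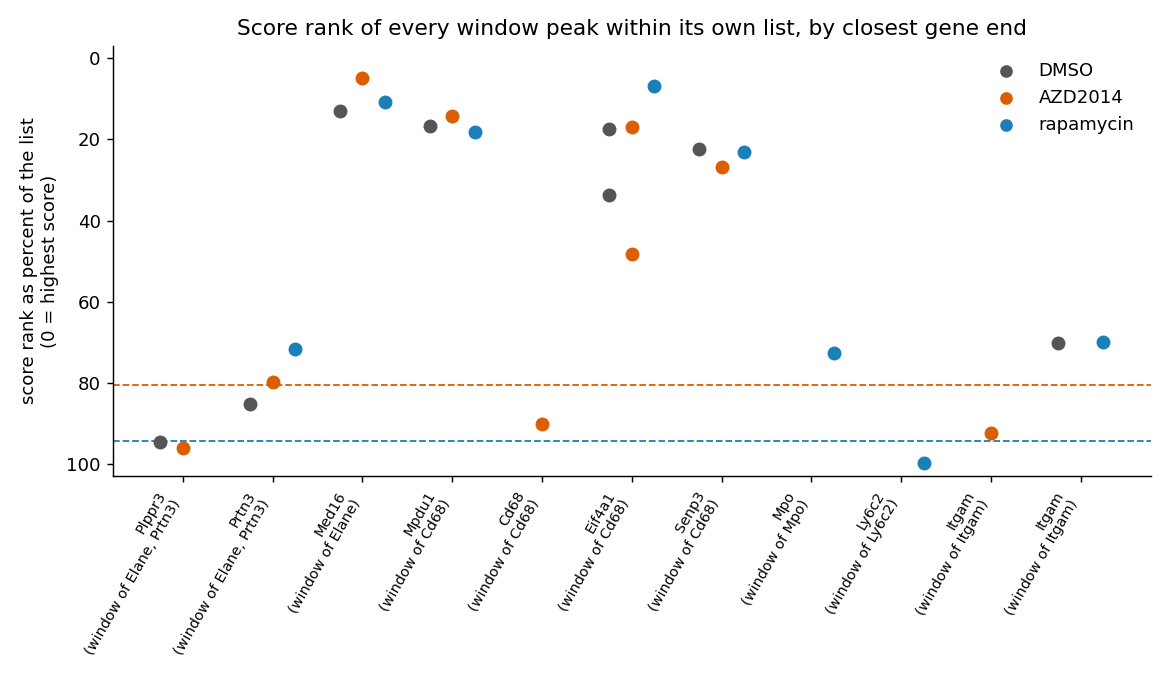
Score rank of each window peak as a percent of its own list (0 at the top is the highest score), by the gene whose end is closest. Dashed lines show where the AZD2014 and rapamycin lists are shortened to the length of the DMSO list; the regions at Med16, Mpdu1, Eif4a1 and Senp3 all rank in the upper 50%, and those closest to one of the 10 genes between 69.9% and 99.8%.

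Ctsg (cathepsin G, another primary granule protease), Lyz2 (lysozyme M), S100a8 and S100a9 (the subunits of calprotectin, abundant in the neutrophil cytosol) had no peak within 20 kb in any list. Ctsg (gene ID 13035) lies on chromosome 14 at 56099885 to 56102574. Its closest peaks were 41.7 kb away under DMSO and AZD2014 and 41.8 kb under rapamycin, at 56057802 to 56058157 in the DMSO list, near the mast cell protease gene Mcpt4. They scored 60.94 (DMSO), 101.06 (AZD2014) and 90.73 (rapamycin). The closest peaks to Lyz2 (gene ID 17105, chromosome 10, 117277541 to 117282272) were 52.7 kb, 52.5 kb and 52.6 kb away in the same order. They covered an end of Yeats4, a chromatin reader gene, with scores of 360.65, 430.12 and 352.77.
S100a8 (gene ID 20201, chromosome 3, 90669071 to 90670034) and S100a9 (gene ID 20202, 90692630 to 90695721) lie in the S100 gene cluster. The closest peaks to S100a8 were 55.6 kb (DMSO), 55.8 kb (AZD2014) and 53.1 kb (rapamycin) away, at or near S100a6. For S100a9 the same peaks were 79.2 kb, 79.4 kb and 76.6 kb away. Those of DMSO (90612067 to 90613479, score 138.46) and AZD2014 (90612604 to 90613263, score 61.77) covered an end of S100a6. The closest rapamycin peak (90615277 to 90616004, score 74.71) overlapped neither and lay 863 bp from an S100a6 end. Its score therefore belongs to a different region. At each of the 4 genes without a window peak, the nearest peak lay at or near the same neighbouring gene in the 3 lists.

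**Figure D3:**
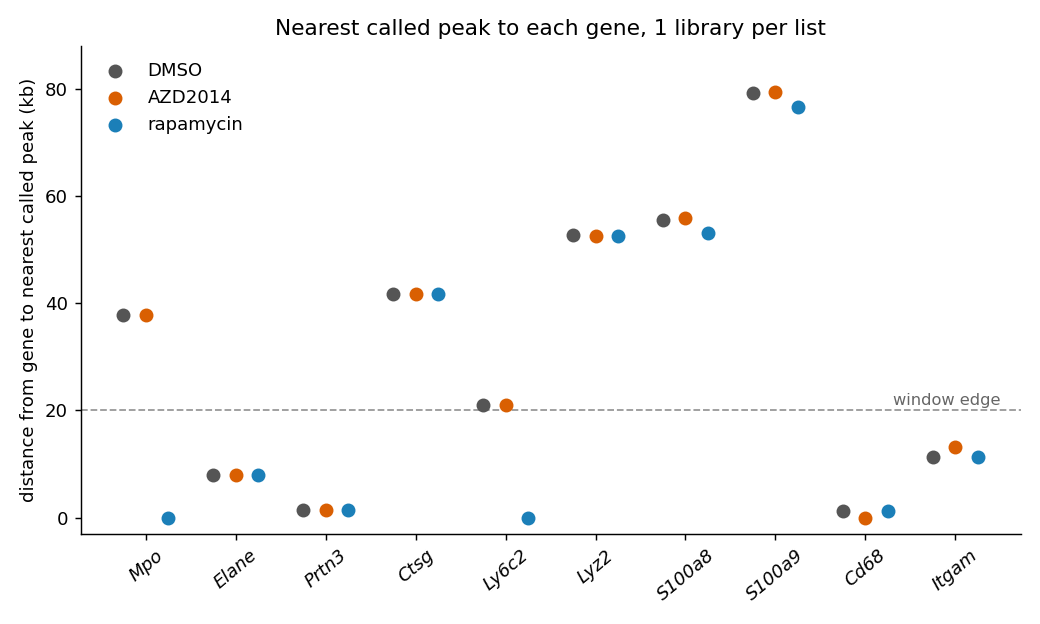
Distance in kb from each gene to the nearest called peak, 1 point per list. The rapamycin point is at 0 at Mpo and Ly6c2. At Cd68 the AZD2014 point is at 0, with DMSO at 1.29 kb and rapamycin at 1.22 kb. No point is at 0 at the other 7 genes. Among these, a different region sets the AZD2014 point at Itgam and the rapamycin point at S100a8 and S100a9.

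Counted over the 10 genes, gene-end peaks were present at 0 in the DMSO list, 1 in the AZD2014 list and 2 in the rapamycin list. Over all protein-coding genes the shares were 46.0%, 49.5% and 46.9%. No list marked 7 of the 10 genes, where 48.5% of all genes were unmarked. A gene-end peak under rapamycin and not DMSO occurred at 3.05% of all genes, and under AZD2014 and not DMSO at 4.63%.  At equal list lengths the counts were 0 under DMSO, 0 under AZD2014 and 1 under rapamycin, Mpo being the gene left. The shares of all genes in the rapamycin list alone and the AZD2014 list alone were then 1.03% and 1.40%. At least 1 window peak was present for 4 of the 10 genes under DMSO, 4 under AZD2014 and 6 under rapamycin, against 66.4%, 70.1% and 67.8% of all genes. No window peak in any list was the case for 4 of the 10 and for 27.4% of all genes. Against DMSO, rapamycin had more window peaks at 2 of the 10 genes and fewer at 3 (Elane, Prtn3 and Cd68). Of all genes, 14.8% had more and 11.3% fewer. Elane and Prtn3 lacked the same weak region near Plppr3. Cd68 lacked none, its DMSO peaks at Eif4a1 being joined under rapamycin, so the 3 genes with fewer rest on 1 missing region. Against DMSO, AZD2014 had more at 1 gene and fewer at 0, where 23.6% and 6.42% of all genes had more and fewer. The AZD2014 direction did not hold at equal list lengths. AZD2014 then had fewer window peaks than DMSO at Elane (2 against 3), Prtn3 (1 against 2) and Itgam (0 against 1), and more at none. Elane and Prtn3 again lacked the same region near Plppr3. Shortening removes AZD2014 peaks and no DMSO peaks. Rapamycin then had more at Mpo alone and fewer at the same genes as before. The matching shares of all genes at equal list lengths were not computed, so nothing is read from the equal-length counts. Both comparisons use the same DMSO library.

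**Figure D4:**
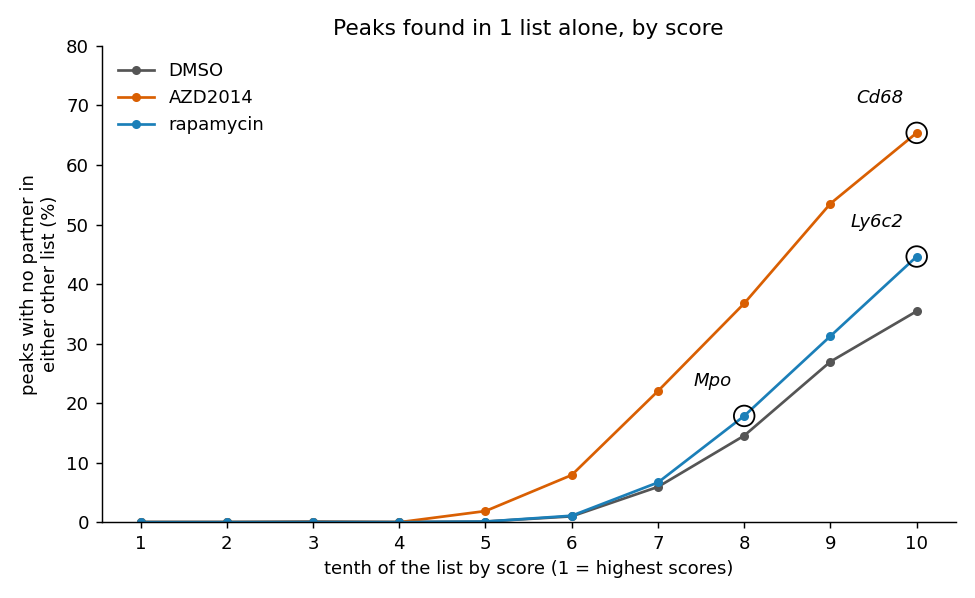
Share of peaks with no partner in either other list (percent), by decile of each list from the highest to the lowest scores. Circles mark the deciles that hold the start-site peaks of Mpo (17.9%), Ly6c2 (44.6%) and Cd68 (65.4%). The Mpo peak is in decile 8 of its list, and the Ly6c2 and Cd68 peaks are in decile 10 of theirs.

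A list of 50 other neutrophil and monocyte genes, matched in full and chosen with earlier results of these data known, was set beside the 10. At least 1 window peak was present at 31 of the 50 under DMSO, 37 under AZD2014 and 33 under rapamycin. Of all genes, 66.4%, 70.1% and 67.8% had one in the same order. The windows were thus covered about as often as those of all genes, and the gene ends less often. Gene-end peaks were present at 8 of 50 under DMSO, 11 under AZD2014 and 12 under rapamycin, against the 46.0%, 49.5% and 46.9% of all genes, and 37 had none in any list. A gene-end peak in all 3 lists was present at 8 of the 50 and at 43.5% of all genes. The 8 with a gene-end peak in all 3 lists were Cebpa, Cebpb, Irf8 and Klf4, which encode transcription factors of myeloid development, Cyba, a subunit gene of the NADPH oxidase, the Fc receptor gene Fcgr3, Ctsc, whose product activates the granule proteases, and Lgals3, the galectin-3 gene. Ctsc had scores of 241.39 under DMSO, 265.45 under AZD2014 and 267.8 under rapamycin. Cebpa scored 185.4, 226.24 and 192.21 in the same order. By rank Ctsc stood 23.5%, 28.2% and 23.9% of the way down each list, and Cebpa 33.8%, 33.2% and 35.9%. The lists differ in length and the places of these genes at equal list lengths were not computed, so the places are not compared.
The pattern of Mpo, a gene-end peak under rapamycin and in neither other list, was found at 2 of the 50 and at 0.850% of all genes. The 2 were Mmp8, a collagenase gene of the secondary granule (score 53.26), and Mpeg1, the perforin-2 gene of macrophages (score 59.13). Mmp8 lost it at equal list lengths and Mpeg1 kept it. The pattern of Cd68, found at 2.43% of all genes, was shared by Itgb2, the partner of Itgam, with an AZD2014 score of 68.88. Spi1, which encodes PU.1, was marked by AZD2014 (91.94) and rapamycin (54.35) but not by DMSO, as was the cytokine receptor gene Csf2rb (80.5 and 71.0). With all deposited peaks, no gene of the 50 had a gene-end peak under DMSO that was missing under a drug. Of all genes, 1.09% showed this for AZD2014 and 2.09% for rapamycin. Only genes with a DMSO gene-end peak can show it, 8 of the 50 and 10059 of all genes. Of the 10059, 238 lacked it under AZD2014 and 457 under rapamycin, so its absence among 8 genes says little. At equal list lengths the counts for the 50 were 8, 10 and 10. Lgals3, with scores of 96.95 (DMSO), 63.35 (AZD2014) and 53.05 (rapamycin), then kept its gene-end peak under DMSO and lost it under both drugs.

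**Figure D5:**
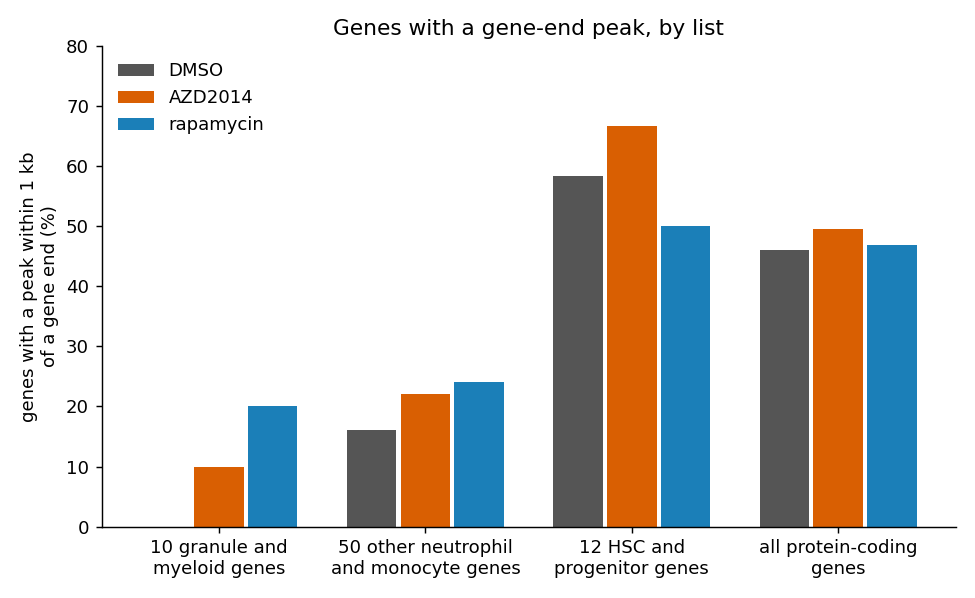
Percent of genes carrying a gene-end peak in each list, for the 10 genes, the 50 other neutrophil and monocyte genes, 12 HSC and progenitor genes and all protein-coding genes. The DMSO bar of the 10 genes is at 0; 8, 11 and 12 of the 50 genes and 7, 8 and 6 of the 12 carry a peak under DMSO, AZD2014 and rapamycin.

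Marker genes of other cells were set beside these counts. Over all protein-coding genes, gene-end peaks were present at 46.0% (DMSO), 49.5% (AZD2014) and 46.9% (rapamycin). The lists are short, and no difference between cell types was tested. Of 12 HSC and progenitor genes, 7, 8 and 6 carried gene-end peaks in the DMSO, AZD2014 and rapamycin lists, with Kit, Meis1, Mecom, Hlf, Mycn and Runx1 marked in all 3 lists. Hoxa9 was marked under DMSO (72.92) and AZD2014 (80.06) and not rapamycin, and Cd34 under AZD2014 alone (59.2), as Cd68 was. Of 5 mast cell and basophil genes the counts were 0, 0 and 1, the last being Cpa3, with a rapamycin score of 77.68, while Mcpt8, Ms4a2, Fcer1a and Gata1 had no gene-end peak in any list. Of 5 T cell genes 0 were marked in each list, of 5 B cell genes 1, 2 and 2, and of 6 erythroid genes 3 in each. Cd79a, a B cell receptor gene, was marked under AZD2014 (113.84) and rapamycin (92.95) and not DMSO, as Spi1 was. The cells had been sorted as HSCs before culture, and the part of other cell types in the peaks of the 10 genes was not tested.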

How the data were processed

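ATAC-seq libraries of cultured mouse HSCs (DMSO, AZD2014 and rapamycin, 1 library each) were amplified and sequenced on an Illumina instrument, per the labels' protocols. CASAVA and the build mm10 are named in the submitters' processing notes. The authors deposited 1 peak list per library, not a pooled one, with a score per peak. The peak names carry the word MACS; the sources used here do not name the aligner, caller version, duplicate handling or any read shift. The deposited score was used to rank peaks within a list, and scores are also printed for each list. Their level differed between lists. The highest decile began at 358.15 under DMSO, 471.08 under AZD2014 and 409.12 under rapamycin. A higher score in 1 list than in another is therefore not read as a gain.

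Starts were counted from 1. Gene ends reach 1 kb to each side of a gene's first and last base, and peaks overlapping by 1 bp were merged. Gene positions and promoters came from RefSeq tables on GRCm38.p6, without mitochondrial genes. The table gives no exons. All 10 genes matched a promoter entry, which gave the strand. Read totals are unknown, so depth is too, and no test was made. Members and lists were chosen with earlier results of these data known. All 10 genes, each region in their windows, its closest gene and those of the 50 other neutrophil and monocyte genes that differed between lists were named. Ly6c1, the marker genes of other cells, Yeats4, Mcpt4, S100a6, Tspoap1, the genes in all 3 lists and the region beyond the Ly6c2 window were added after their values were seen. The overlap code was checked on the DMSO list with peaks removed and on a list of made-up peaks. All 200 removed peaks and all 400 added gene-end peaks were found. This checks the code and says nothing about the detection of real peaks. Alternatives were shorter lists, other windows and gene ends, the start site alone, other overlap rules and peaks of 200 bp. Python 3.11.15, numpy 2.4.6, pandas 2.3.3, Biopython 1.88 and matplotlib 3.10.9 were used.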

Additional observations from a re-analysis of the deposited data

How the results depend on the processing

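No paired analysis was possible because each group is 1 library. Values are given in the order DMSO, AZD2014, rapamycin, and the cause of a move was not tested except where fewer peaks or a narrower window give it by construction. Changes of up to 1.5-fold between counts above 0 were treated as no move, and not all of them are listed. Window peaks numbered 8, 9 and 8. With equal list lengths they numbered 8, 6 and 7. They were 5, 5 and 4 in the upper 50% of each list, 3, 5 and 5 with windows of 5 kb, 18, 21 and 20 with 50 kb, and 0, 1 and 2 in the gene body alone. Genes with a gene-end peak numbered 0, 1 and 2. With equal list lengths AZD2014 had 0 and rapamycin 1, in the upper 50% both had 0, and with gene ends of 2500 bp the counts were 2, 2 and 4. Gene ends of 500 bp and the start site alone changed none of these counts. Regions closest to an end of 1 of the 10 genes numbered 2, 3 and 4. AZD2014 had 1 with equal list lengths, all 3 lists had 0 in the upper 50%, DMSO had 1 with windows of 5 kb, and the gene body alone held 0, 1 and 2.

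Of the regions, 5 were in all 3 lists, 1 under DMSO and AZD2014, 1 under DMSO and rapamycin, 0 under AZD2014 and rapamycin, 0 under DMSO alone, 2 under AZD2014 alone and 2 under rapamycin alone. With equal list lengths, DMSO and AZD2014 shared 0, DMSO alone had 1, AZD2014 alone 0 and rapamycin alone 1. In the upper 50% these were 0 for either pair with DMSO and 0 for either drug alone. Windows of 5 kb left 3 in all 3 lists, 0 under DMSO and rapamycin and 1 under AZD2014 alone. Windows of 50 kb held 15 in all 3 lists and 2 under both drugs. The gene body alone held 0 in all 3 lists, 0 for either pair with DMSO and 1 under AZD2014 alone. A reciprocal overlap of 50% gave 2 under DMSO and AZD2014 and 1 under DMSO alone, and peaks of 200 bp gave 3 in all 3 lists and 3 under DMSO and AZD2014. A distance of 500 bp moved none of them. The score ranks moved by construction in shorter lists, for AZD2014 and then rapamycin to 98.8% and 75.9% at Prtn3, 6.004% and 11.4% at Med16, 17.6% and 19.3% at Mpdu1, 21.01% and 7.24% at Eif4a1 and 33.3% and 24.6% at Senp3.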
